A study of Mus musculus with 6 samples.

Results

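The genes of de novo nucleotide synthesis were compared between livers of SHMT2 HKO and SHMT2 fl/fl mice. The 10 genes, out of 49671 in the count table, were chosen by symbol, and each was matched to its Ensembl identifier: Ppat, Gart, Pfas, Paics, Adsl and Atic of the purine pathway, Tyms for thymidylate, and Cad, Dhodh and Umps of the pyrimidine pathway. RNA-seq was performed on whole liver of 6 male mice in the C57BL/6 J background, 3 SHMT2 fl/fl controls with the floxed Shmt2 gene and no Cre, and 3 SHMT2 HKO mice with the same floxed gene and Cre under the Albumin promoter, which is active in hepatocytes. The deposited labels name these groups WT and KO. The AMLN diet, which has a high content of fat, fructose and cholesterol, was given to every mouse for 18 weeks starting at 4 weeks of age, and livers were taken at 22 weeks. Since the controls carried no Cre, the presence of Cre and the loss of Shmt2 cannot be told apart. In whole tissue, fewer cells of a type and less RNA per cell cannot be told apart either.

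The purine ring is built step by step on phosphoribosyl pyrophosphate (PRPP), a phosphorylated ribose, and ends in inosine monophosphate (IMP), the parent of AMP and GMP. The pyrimidine ring is built first, as orotate, and then joined to PRPP to give uridine monophosphate (UMP). Folate-bound one-carbon units enter the purine ring at the steps of Gart and Atic, and Tyms uses one to turn dUMP into dTMP, while the other enzymes of both pathways use none. SHMT2 is the mitochondrial enzyme that takes such a unit from serine, and the comparison asks how the RNA of the enzymes that spend these units, and of their neighbours in the pathways, stood in livers lacking it in hepatocytes. In liver, these pathways are known to work beside an active salvage of bases and the breakdown of purines to uric acid and allantoin.

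The libraries held 23090837 to 34089722 counts on genes. Values are given as CPM, the counts of a gene scaled to a common library total, after TMM scaling, a correction for differences in RNA composition. TMM factors were 1.13 to 1.21 in fl/fl and 0.802 to 0.984 in HKO livers, so this scaling enters every CPM and fold change. Shmt2 itself fell from 99.1 ± 8.50 CPM (SD, n = 3 mice) in fl/fl to 24.1 ± 4.51 (SD, n = 3) in HKO livers. Its log2 fold change was -2.04 (SE 0.16, adjusted p = 0.000639). This and every adjusted p given without another name came from the quasi-likelihood test of edgeR, adjusted by Benjamini-Hochberg over the 16089 genes tested. HKO mouse 3 lay nearest to the fl/fl mice on the first principal component. It is named below for Umps and some other values. Other fold changes also shifted without it, and some of these are given in the section on processing.

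All 10 genes had enough counts to be tested, with 150 to 6048 counts in a library. Umps was the only one called at an adjusted p below 0.05, and it was higher in HKO livers. Across all genes tested, 29.0% were called, 12.5% higher and 16.5% lower, against 1 of the 10 here. For the other 9 genes, every 95% interval of the log2 fold change included 0, with bounds between -0.55 and 0.60, or 0.681-fold and 1.52-fold. Their adjusted p-values lay between 0.175 and 0.931. The median log2 fold change of the 10 genes was 0.03, equal to the median of all genes tested (0.03). The median size of the change regardless of sign was 0.11 for the 10 genes and 0.39 for all genes, with a median SE of 0.14 and 0.20.

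**Figure D1:**
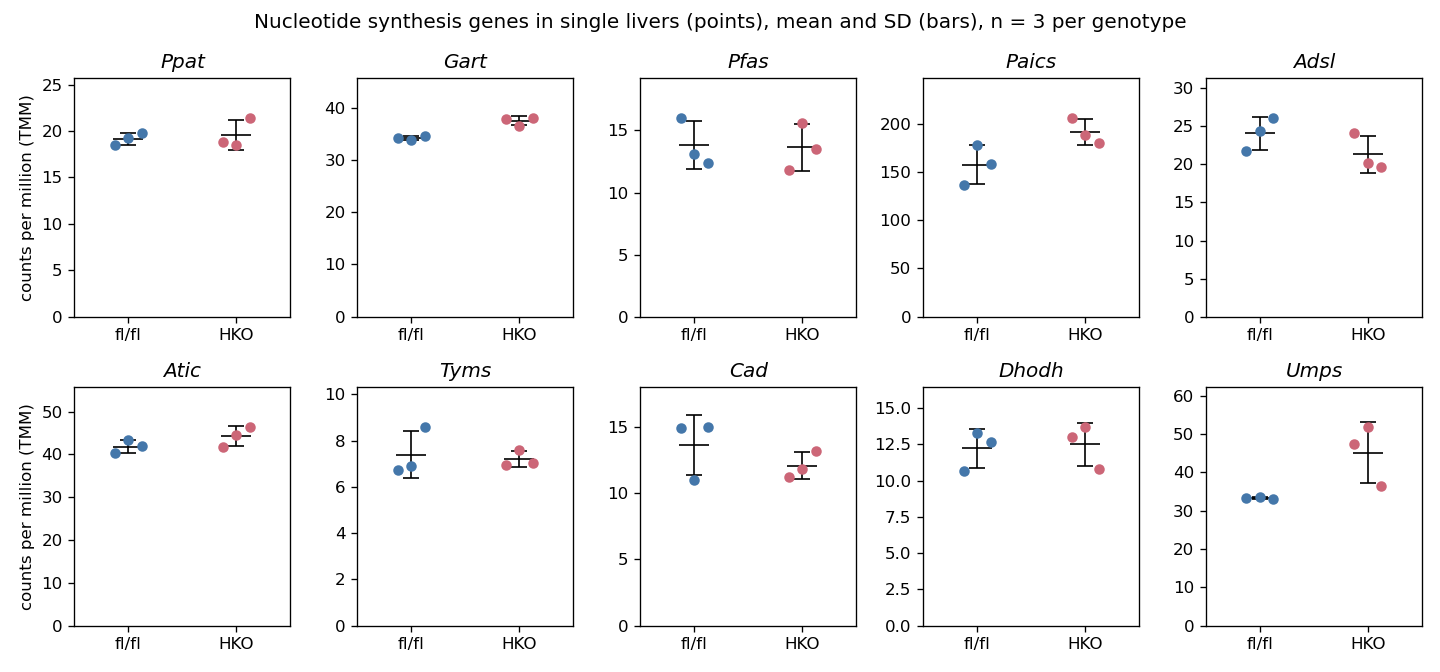
CPM after TMM scaling of each of the 10 genes (vertical axes, each from 0) in single fl/fl and HKO livers, with the mean and SD of 3 mice. The groups overlap for 7 genes, and for Umps HKO mouse 3 lies at 36.3 CPM, near the fl/fl mice at 32.9 to 33.5.

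None of the 6 purine genes passed the test. Ppat (ENSMUSG00000029246, chromosome 5, 76913249 to 76951578, minus strand, GRCm38) encodes the amidotransferase of the committed step. Its CPM were 18.5, 19.2 and 19.8 in fl/fl mice 1, 2 and 3 and 18.8, 18.5 and 21.4 in HKO mice 1, 2 and 3. The groups overlapped, and the log2 fold change was 0.03 (95% interval -0.24 to 0.30, SE 0.12, adjusted p = 0.879).

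Gart (ENSMUSG00000022962, chromosome 16, 91621186 to 91646952, minus strand) encodes a protein with several activities, among them the earlier of the folate-dependent formyl transfers of the pathway. It measured 34.2, 33.9 and 34.6 CPM in fl/fl and 38.0, 36.6 and 38.1 CPM in HKO livers. Every HKO value was above every fl/fl value, but the log2 fold change of 0.13 (95% interval -0.09 to 0.36, SE 0.10) gave an adjusted p of 0.346. Groups without overlap were found for 3 of the 10 genes (Gart, Paics and Umps), against 46.9% of all genes tested.

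Pfas (ENSMUSG00000020899, chromosome 11, 68985697 to 69008460, minus strand), whose enzyme adds a nitrogen from glutamine, measured 16.0, 13.1 and 12.4 CPM in fl/fl and 11.8, 15.6 and 13.5 CPM in HKO livers. The values of the groups were interleaved, with a log2 fold change of -0.02 (95% interval -0.40 to 0.35, adjusted p = 0.931).

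Paics (ENSMUSG00000029247, chromosome 5, 76951307 to 76967509, plus strand) encodes the enzyme that carboxylates the ring and attaches aspartate. Its CPM were 137, 178 and 158 in fl/fl and 206, 188 and 180 in HKO livers, so that the groups were separated only by the gap between fl/fl mouse 2 and HKO mouse 3. The log2 fold change was 0.28 (95% interval -0.04 to 0.60, SE 0.14), the largest of the purine genes, and did not pass the test (adjusted p = 0.175).

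Adsl (ENSMUSG00000022407, chromosome 15, 80948490 to 80970946, plus strand) encodes the lyase that releases fumarate here and again on the way to AMP. It measured 21.8, 24.4 and 26.1 CPM in fl/fl and 24.1, 20.2 and 19.7 CPM in HKO livers, a log2 fold change of -0.18 (95% interval -0.48 to 0.13, adjusted p = 0.359). HKO mouse 1 lay among the fl/fl mice and the other HKO mice lay below them. Without TMM scaling Adsl was called lower (log2 fold change -0.60, adjusted p = 0.0151), a setting under which the median of all genes was at -0.40.

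Atic (ENSMUSG00000026192, chromosome 1, 71557150 to 71579631, plus strand) encodes the enzyme of the later formyl transfer and of ring closure to IMP. Its CPM were 40.3, 43.3 and 41.9 in fl/fl and 41.8, 44.5 and 46.4 in HKO livers, which overlapped. The log2 fold change was 0.08 (95% interval -0.16 to 0.32, adjusted p = 0.602).

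Tyms (ENSMUSG00000025747, chromosome 5, 30058202 to 30073617, minus strand) encodes thymidylate synthase. It was the lowest of the 10 in CPM, with 6.72, 6.88 and 8.58 CPM in fl/fl and 6.95, 7.59 and 7.04 CPM in HKO livers. The HKO values all lay within the fl/fl range, and the log2 fold change was -0.04 (95% interval -0.43 to 0.35, adjusted p = 0.880). The genes of the folate-using enzymes Gart, Atic and Tyms were thus at 0.13, 0.08 and -0.04, each with an interval that included 0.

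In the pyrimidine pathway the gene of the last enzyme differed between genotypes in the test, and those of the earlier enzymes did not pass it. Cad (ENSMUSG00000013629, chromosome 5, 31054780 to 31078479, plus strand) encodes one long protein that carries out the opening steps. It measured 14.9, 11.0 and 15.0 CPM in fl/fl and 11.2, 11.8 and 13.2 CPM in HKO livers, with a log2 fold change of -0.18 (95% interval -0.55 to 0.20, adjusted p = 0.454). The HKO values fell inside the fl/fl range, whose spread came from fl/fl mouse 2.

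Dhodh (ENSMUSG00000031730, chromosome 8, 109591343 to 109608673, minus strand) encodes the dehydrogenase of the inner mitochondrial membrane that forms orotate and passes electrons to ubiquinone. Its CPM were 10.7, 13.3 and 12.7 in fl/fl and 13.0, 13.7 and 10.8 in HKO livers. The groups overlapped over most of their range, and the log2 fold change was 0.03 (95% interval -0.33 to 0.39, adjusted p = 0.904).

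Umps (ENSMUSG00000022814, chromosome 16, 33954782 to 33967038, minus strand) encodes UMP synthase, which joins orotate to PRPP and removes the carboxyl group to give UMP. Its CPM were 33.3, 33.5 and 32.9 in fl/fl and 47.4, 51.8 and 36.3 in HKO livers. The fl/fl mice were close together (33.2 ± 0.310, SD, n = 3), the HKO mice were spread (45.2 ± 7.96, SD, n = 3), and all HKO values lay above all fl/fl values. Umps rose 1.36-fold (95% interval 1.08 to 1.71), a log2 fold change of 0.44 (SE 0.14, adjusted p = 0.0498). The call stood at the threshold: it was made in 2 of 15 alternatives, DESeq2 (adjusted p = 0.0296) and the fit without HKO mouse 3 (log2 fold change 0.56, adjusted p = 0.00605). It was lost in the other 13, including limma-voom (adjusted p = 0.0571) and the omission of any fl/fl mouse (0.128 to 0.145) or of HKO mouse 1 (0.0851) or 2 (0.152).

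**Figure D2:**
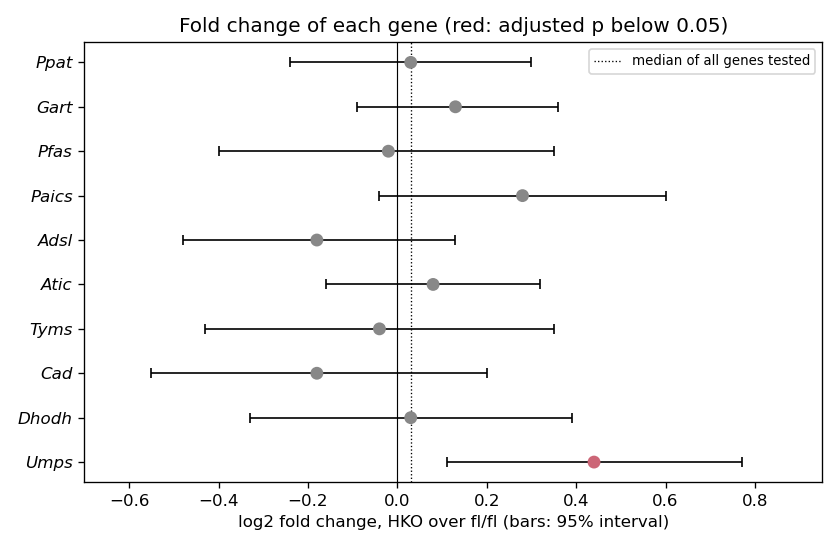
Log2 fold change of each gene, HKO over fl/fl, with TMM scaling (horizontal axis, points) and its 95% interval from the edgeR quasi-likelihood fit (bars), n = 3 mice per genotype, with the median of all genes tested as a dotted line. The interval of Umps, 0.11 to 0.77, is the only one that leaves out 0, and under ERCC scaling its log2 fold change was -0.35 (SE 0.51).

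For 6 of the 10 genes, Ppat, Gart, Paics, Atic, Dhodh and Umps, the direction changed with the scaling of the libraries, while Pfas, Adsl, Tyms and Cad were below 0 under all 4 scalings. Without TMM the median of all genes moved by -0.42, and with scaling to the ERCC RNAs, synthetic transcripts added to the samples, by -0.72. The 10 genes moved with it, with a median log2 fold change of -0.39 without TMM and -0.69 with ERCC scaling, where the median of all genes was -0.40 and -0.69. Umps had a log2 fold change of 0.00 without TMM and -0.35 with ERCC scaling, and was not called under either (adjusted p = 0.996 and 0.611). Fold changes with ERCC scaling were imprecise, with an SE of 0.45 to 0.56 for the 10 genes against 0.10 to 0.17 with TMM. The ERCC RNAs made up 1.42 to 1.84% of the counts in fl/fl and 1.35 to 2.75% in HKO libraries. A sign under ERCC scaling is therefore given as a description. Relative to the median gene of the same fit, Umps stood at 0.40 without TMM, 0.42 with upper-quartile scaling and 0.34 with ERCC scaling. Paics stood at 0.25 under each of these 3 scalings, and Adsl between -0.23 and -0.20.

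**Figure D3:**
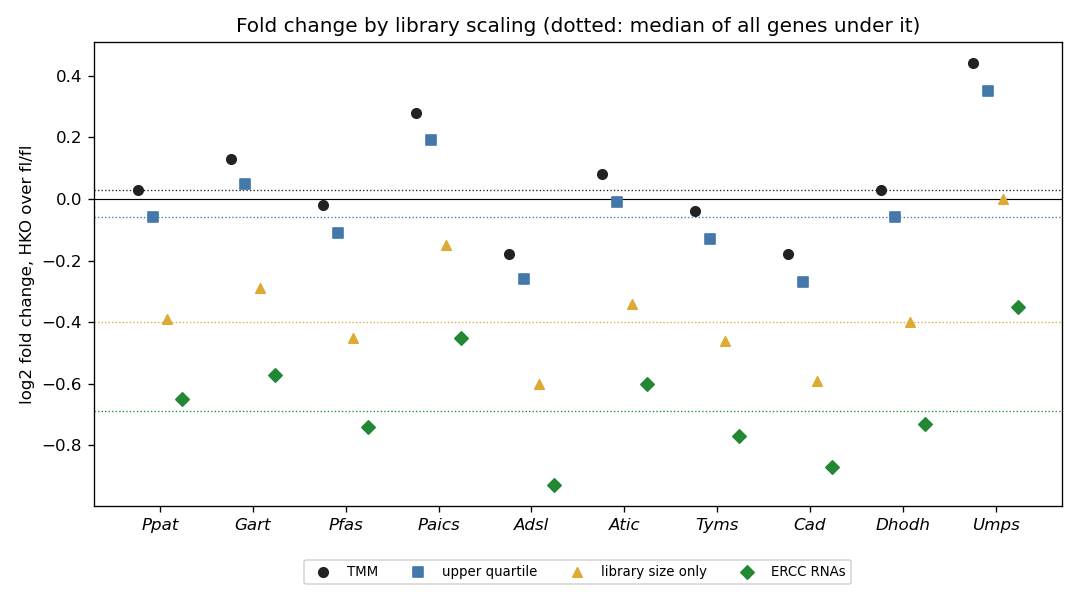
Log2 fold change, HKO over fl/fl, of each gene (vertical axis) under TMM, upper-quartile, library-size and ERCC scaling, with the median of all genes under each as a dotted line of the same colour. The genes shift together with the median, so Ppat, Gart, Paics, Atic and Dhodh are above 0 with TMM and below 0 with library-size and ERCC scaling, while Umps is the highest of the 10 under all 4.

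A ratio of genes within the same library is free of that scaling. On the log2 scale and per base of exon, Umps over the geometric mean of the other 9 genes was 1.33, 1.31 and 1.22 in fl/fl mice 1, 2 and 3 and 1.80, 1.89 and 1.41 in HKO mice 1, 2 and 3. The HKO ratios were all above the fl/fl ratios, with a difference of means of 0.41 that is given as a description. For each of the other 9 genes, the same ratio overlapped between the genotypes. Within the pyrimidine pathway, Umps over Dhodh was 2.49, 2.19 and 2.23 in fl/fl and 2.72, 2.78 and 2.61 in HKO livers on the log2 scale, without overlap. Umps over Cad overlapped, with fl/fl mouse 2 at 2.83 and HKO mouse 3 at 2.70.

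Levels were compared between genes as CPM per kilobase of annotated exon. In fl/fl livers Paics was highest (50.2 ± 6.50, SD, n = 3), followed by Umps (9.53 ± 0.0891), Gart (6.66 ± 0.0740), Atic (5.24 ± 0.190), Ppat (4.34 ± 0.141), Adsl (4.27 ± 0.379), Dhodh (1.94 ± 0.215), Pfas (1.74 ± 0.241), Cad (1.67 ± 0.275) and Tyms (1.21 ± 0.169). The order of the means was the same in HKO livers, from Paics at 60.9 ± 4.32 to Tyms at 1.18 ± 0.0573. Ppat and Adsl overlapped as neighbours in this order, as did Dhodh and Pfas, and Pfas and Cad, in both genotypes, while Cad and Tyms overlapped in fl/fl livers only. Exon lengths count all annotated isoforms, so an order between genes also carries that choice.

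Some of the genes share sequence with neighbours, and the strand setting of the counting was not given in the sources used here. Ppat and Paics lie head to head, and their first exons overlap by 272 bases of chromosome 5 (76951307 to 76951578), where reads of the 2 genes cannot be told apart without strand. Paics exceeded Ppat per base in every library, by 3.38 to 3.70 on the log2 scale in fl/fl and 3.57 to 3.95 in HKO livers. Umps overlaps the antisense gene Gm15829 by 213 exon bases, and Gm15829 held 2 to 6 counts per library beside 891 to 1362 for Umps. Gart overlaps the antisense gene Gm15964 by 1014 exon bases, and Gm15964 held 27 to 54 counts beside 724 to 1398 for Gart.

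Promoter sequences are shown for Umps, which was called, and for Cad, of the same pathway, which was not. They come from RefSeq windows on GRCm38.p6 that run from 250 bases before to 50 bases after the annotated start, found for 8 of the 10 genes (not for Pfas and Dhodh), and are cut to bases upstream of the start and outside exons of coding genes. Each is written 5′ to 3′ on the strand of the gene, Umps from chr16:33967039-33967288 on the minus strand and Cad from chr5:31054624-31054779 on the plus strand, with TATAAA and the GC box GGGCGG, or its reverse complement, in capitals.
Umps: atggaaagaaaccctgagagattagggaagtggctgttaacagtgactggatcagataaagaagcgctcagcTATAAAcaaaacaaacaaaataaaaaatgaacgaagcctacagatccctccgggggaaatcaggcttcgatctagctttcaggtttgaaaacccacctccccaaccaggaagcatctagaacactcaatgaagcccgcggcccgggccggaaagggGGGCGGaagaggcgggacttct
Cad: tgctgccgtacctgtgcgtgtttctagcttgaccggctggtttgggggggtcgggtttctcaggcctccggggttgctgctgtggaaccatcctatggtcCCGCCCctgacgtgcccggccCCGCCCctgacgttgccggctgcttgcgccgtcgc
TATAAA was found in the window of Umps, 178 bases before the start, in none of the other 7 windows, and in 13.6% of all 32851 windows. GGGCGG, the letters bound by Sp1, was in all 8 windows and in 35.7% of all. All motifs were searched on both strands, and none of these matches is evidence of binding.

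The E-box CACGTG, to which MYC and related factors bind, was found in the windows of Paics, Atic and Tyms and in 7.15% of all windows. It began 203, 7 and 61 bases before the start, for Paics at a place inside the annotated span of Ppat. The stretches around it, with the E-box in capitals, are from chr5:76951087-76951116 (plus strand) for Paics, chr1:71557137-71557166 (plus strand) for Atic and chr5:30073669-30073698 (minus strand) for Tyms.
Paics: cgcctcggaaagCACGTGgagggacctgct
Atic: ggacctcggggtCACGTGgggtcgacacgc
Tyms: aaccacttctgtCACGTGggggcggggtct
The log2 fold changes of these 3 genes were 0.28, 0.08 and -0.04, none of them called. CCAAT was in 3 of the 8 windows (Gart, Paics and Atic) and 37.4% of all. The E2F letters TTTGGCGC or TTTCGCGC (0.813% of all windows) and the amino acid response letters TGATGNAA (3.97% of all) were in none of the 8.

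Of 9 genes of the MYC network, factors that bind E-boxes or compete for them, 1 was called higher and 1 lower, beside 29.0% called of all genes tested. Myc was at 17.1 ± 0.0494 CPM (SD, n = 3) in fl/fl and 19.4 ± 7.39 in HKO livers (log2 fold change 0.18, adjusted p = 0.640). Mxi1, which encodes an antagonist of MYC, was higher (0.40, adjusted p = 0.0440, with -0.01 without TMM and -0.26 with ERCC scaling), and Mxd3, of the same family, was lower (-1.19, adjusted p = 0.0436). Mxd3 had few counts, 70, 51 and 65 in fl/fl mice 1, 2 and 3 and 12, 23 and 17 in HKO mice 1, 2 and 3. Mxi1 was called in 4 and Mxd3 in 8 of the 15 alternatives, Mxd3 not with the replicate block (adjusted p = 0.0667), without a filter (0.0697) or in 5 of 6 omissions of a mouse (0.066 to 0.124).

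Around the 10 genes lie those that supply, branch, salvage and degrade nucleotides and those of folate one-carbon metabolism. Of 58 genes in 9 lists of these steps, 55 could be tested, 14 were called higher and 8 lower in HKO livers, and their median log2 fold change was 0.13. Over all genes tested 12.5% were called higher and 16.5% lower, and the counts of short lists given next stand against that share. Upstream, 1 of 4 PRPP supply genes passed the test: Prps1, a PRPP synthetase, was at 24.7 ± 1.58 CPM in fl/fl and 33.1 ± 0.461 in HKO livers (log2 fold change 0.42, adjusted p = 0.0215), but at 0.00 without TMM and -0.29 with ERCC scaling, and was called in 7 of 15 alternatives. Below IMP, 1 of 6 genes of the AMP and GMP branches passed: Impdh1, an IMP dehydrogenase gene of the GMP branch, fell from 12.5 ± 1.30 CPM in fl/fl to 6.86 ± 0.662 in HKO livers (-0.86 on the log2 scale, adjusted p = 0.00642). The other such gene, Impdh2, was at 43.4 ± 5.38 and 40.4 ± 5.67 CPM (log2 fold change -0.10, adjusted p = 0.632). Adss, Adssl1, Gmps and Guk1 of these branches were at 0.12, 0.47, 0.29 and 0.41, none of them called. Values of Gmps and Guk1 did not overlap between the genotypes. Below UMP, 2 of 4 genes passed, both lower, the CTP synthase gene Ctps2 (-0.66, adjusted p = 0.0184) and the mitochondrial nucleotide kinase gene Cmpk2 (-1.11, adjusted p = 0.0411), the latter with overlapping groups. The UMP kinase gene Cmpk1 was at 70.0 ± 11.3 CPM in fl/fl and 102 ± 21.9 in HKO livers, without overlap. It was not called (log2 fold change 0.54, adjusted p = 0.059), nor was Ctps (-0.34, adjusted p = 0.266). Ctps2 was called in 10 and Cmpk2 in 8 of the 15 alternatives, Cmpk2 not with limma-voom (adjusted p = 0.0747), without a filter (0.145) or in 5 of 6 omissions of a mouse (-0.75, adjusted p = 0.138, without fl/fl mouse 1).

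Of 6 deoxynucleotide supply genes, 1 was called, Dctd. It encodes the deaminase that makes dUMP from dCMP, and fell from 1.28 ± 0.367 CPM to 0.320 ± 0.0956 (-1.97 on the log2 scale, adjusted p = 0.0105). These values rest on few counts, 47, 45 and 38 in fl/fl mice 1, 2 and 3 and 5, 7 and 10 in HKO mice 1, 2 and 3. The ribonucleotide reductase genes Rrm1 and Rrm2 were at -0.05 (adjusted p = 0.871) and -0.08 (adjusted p = 0.792).

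The list of purine salvage, in which AMP deaminase genes were also counted, had 2 genes higher and 2 lower of 7. Adk, the adenosine kinase gene, was at 365 ± 18.9 CPM in fl/fl and 576 ± 54.2 in HKO livers (log2 fold change 0.66, adjusted p = 0.0125), and Hprt, which salvages hypoxanthine and guanine, was higher by 0.49 (adjusted p = 0.0276). With ERCC scaling these were at -0.11 and -0.26, and Adk was called in 11 and Hprt in 7 of 15 alternatives. Aprt, which salvages adenine, was at -0.47 on the same scale (adjusted p = 0.0174), and Ampd3, an AMP deaminase gene, at -1.35 (adjusted p = 0.00951). Levels of Ampd3 were 4.10 ± 0.324 CPM in fl/fl and 1.59 ± 0.458 in HKO livers, with 21 to 47 counts in HKO mice. Aprt was called in 10 of 15 alternatives. Its call was lost with ERCC scaling (-1.17, adjusted p = 0.0917) and without any fl/fl mouse (0.0594 to 0.0636) or HKO mouse 2 (0.059). Pyrimidine salvage had 2 of 7 genes higher, the uridine-cytidine kinase gene Uck1 (1.01, adjusted p = 0.0224) and the thymidine kinase gene Tk1 (0.65, adjusted p = 0.0474, but -0.20 with ERCC scaling). Uck1 measured 70.0, 140 and 73.6 CPM in HKO mice 1, 2 and 3 against 44.1 to 48.4 in fl/fl mice, and without HKO mouse 2 its log2 fold change was 0.62 (adjusted p = 0.0181). Its call was lost without TMM (0.56, adjusted p = 0.0905), with ERCC scaling (0.23, adjusted p = 0.731) and without any fl/fl mouse (adjusted p = 0.0712 to 0.0808), and Tk1 was called in 4 of 15 alternatives.

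Among genes listed under breakdown, 3 of 8 purine and 3 of 5 pyrimidine genes were called higher and none lower. Ampd3, called lower, was counted in the salvage list. Gda, the guanine deaminase gene, was at 17.3 ± 0.447 CPM in fl/fl and 40.6 ± 4.86 in HKO livers (log2 fold change 1.23, adjusted p = 0.00101), and Dpyd, the gene of the rate-limiting enzyme of pyrimidine breakdown, at 112 ± 10.7 and 226 ± 24.1 CPM (1.01, adjusted p = 0.00223). Both were above 0 under every scaling, at 0.46 and 0.25 with ERCC scaling, where neither passed the test. Urah and Urad, of the path from urate to allantoin, were higher by 0.82 (adjusted p = 0.0342) and 0.76 (adjusted p = 0.0206). Dpys and Upb1, which act after Dpyd, were higher by 0.69 (adjusted p = 0.0189) and 0.77 (adjusted p = 0.0165). With ERCC scaling Urah, Urad, Dpys and Upb1 were between -0.05 and -0.02, and they were called in 6, 10, 10 and 9 of 15 alternatives. The urate oxidase gene Uox and the xanthine dehydrogenase gene Xdh, at 0.56 (adjusted p = 0.0556) and 0.33 (adjusted p = 0.0850), did not pass.

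**Figure D4:**
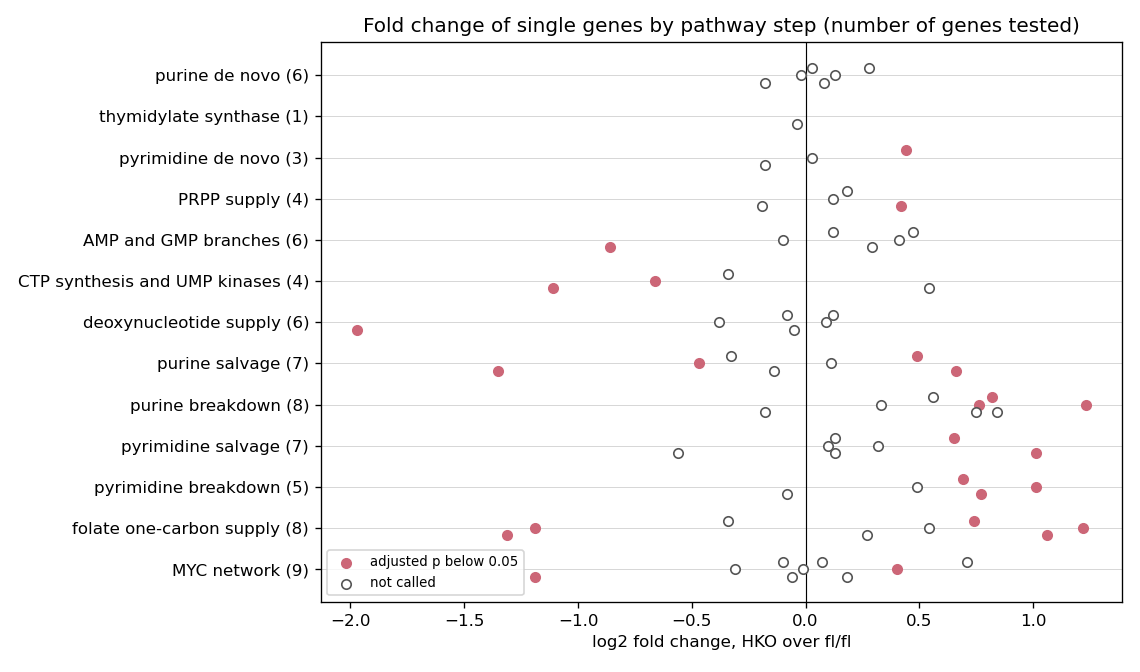
Log2 fold change, HKO over fl/fl, of single genes (points, horizontal axis, TMM scaling, 3 mice per genotype) in the synthesis steps and in the lists around them, with filled points for an adjusted p below 0.05. The 10 synthesis genes lie between -0.18 and 0.44, the breakdown genes reach 1.23 and the folate genes run from -1.31 to 1.22, and with ERCC scaling the median of all genes lies at -0.69.

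Of 8 tested genes of folate one-carbon supply, which make, interconvert, oxidise or carry folate-bound units, 3 were called higher and 2 lower. Shmt1, the cytosolic counterpart of Shmt2, was at 85.0 ± 5.61 CPM in fl/fl and 198 ± 62.0 in HKO livers (log2 fold change 1.22, adjusted p = 0.00585). Mthfd1, the cytosolic enzyme that makes and interconverts formyl-folate, was higher by 0.74 (adjusted p = 0.0120, but -0.03 with ERCC scaling), and Aldh1l1, which oxidises formyl-folate, by 1.06 (adjusted p = 0.0283). Aldh1l1 was called in 8 of 15 alternatives, and not without TMM (0.60, adjusted p = 0.069), with ERCC scaling (0.16, adjusted p = 0.771), with the replicate block (adjusted p = 0.0548), or without any fl/fl mouse or HKO mouse 2 (0.082 to 0.101). Mthfd2, a mitochondrial enzyme gene, was lower (-1.19, adjusted p = 0.0189, called in 12 of 15 alternatives). Mthfd1l, also mitochondrial and named after its values were seen, was lower (-1.31, adjusted p = 0.0435, called in 10 of 15), while the mitochondrial Mthfd2l was at -0.34 (adjusted p = 0.206) and Aldh1l2 had too few counts to test. Gart, Atic and Tyms, which use these units, were not called, as given above.

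Markers of cell types and of proliferation moved between the genotypes beside these values. Counts of called markers here and below stand against 12.5% called higher and 16.5% called lower of all genes tested. All 5 cholangiocyte markers were lower in HKO livers, with a summed level of 950 to 1180 CPM in fl/fl and 128 to 245 in HKO livers. Of 7 lymphocyte markers 4 were lower (36.5 to 52.2 against 13.4 to 22.9 CPM summed), of 6 stellate cell markers 4 were lower (946 to 992 against 173 to 497 CPM), and of 6 macrophage markers 3 were lower and 1 higher (533 to 737 against 413 to 506 CPM). Col1a1 (382 CPM) and Col3a1 (454 CPM) carried most of the mean fl/fl stellate cell sum of 963 CPM. Lrat, of the same list, was not called, with means of 20.8 CPM in fl/fl and 21.3 CPM in HKO livers. Lyz2 made up 384 of 663 CPM of the mean fl/fl macrophage sum. Clec4f was the macrophage marker called higher, at 15.5 CPM in fl/fl and 111 CPM in HKO livers, and Cd5l (89.8 and 140 CPM) was not called. Of 5 endothelial markers 1 was higher (149 to 163 against 158 to 200 CPM). Of 6 hepatocyte markers 3 were higher, with sums of 50600, 52300 and 62700 CPM in fl/fl mice 1, 2 and 3 and 94700, 98400 and 67700 CPM in HKO mice 1, 2 and 3. No defining marker of these lists was at 0 in both groups. For the hepatocyte, cholangiocyte, lymphocyte, stellate cell and macrophage sums, which did not overlap, the exact permutation test (two-sided) gave p = 0.1, the smallest that 3 mice against 3 allow, and for the endothelial and proliferation sums p = 0.2.

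HKO mouse 3 had the lowest hepatocyte sum, the highest cholangiocyte and lymphocyte sums and the lowest Umps value of the HKO mice. These sums were carried by few genes: Spp1 made up 870 of 1040 CPM of the mean fl/fl cholangiocyte sum, Alb 37500 of 55200 of the hepatocyte sum and Ptprc, a gene of all leukocytes, 31.1 of 43.8 of the lymphocyte sum. Single markers did not all follow them, since Krt19 (5.62 CPM) and Sox9 (8.77) were not highest in HKO mouse 3, Cd3d (0.197) and Cd79a (0.551) were the lowest of the HKO mice there, and Apob (4080) was the highest. The part of cell composition in the Umps value was not tested. Of 16 proliferation markers 6 were lower (Mki67, Ccna2, Ccnb1, Cdk1, Aurkb and Birc5) and none higher. The summed level of the 16 was 183 to 205 CPM in fl/fl and 112 to 185 in HKO livers. The DNA replication genes Pcna, Mcm2, Mcm3, Mcm4, Mcm5, Mcm6 and Mcm7 had log2 fold changes between -0.40 and 0.07, with overlapping groups. They were not called, nor were E2f1 (0.29), Top2a (-1.08) and Bub1 (-1.40). Tyms, whose product is used in DNA synthesis, was at 7.39 ± 1.03 and 7.19 ± 0.349 CPM (SD, n = 3) in the same livers. The summed CPM of the 10 synthesis genes was 334, 377 and 362 in fl/fl and 419, 408 and 386 in HKO livers. Paics alone made up 137 to 206 CPM of it. The log2 ratio of this 10-gene sum between genotypes was 0.18 with TMM, -0.25 without TMM and -0.55 with ERCC scaling.

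**Figure D5:**
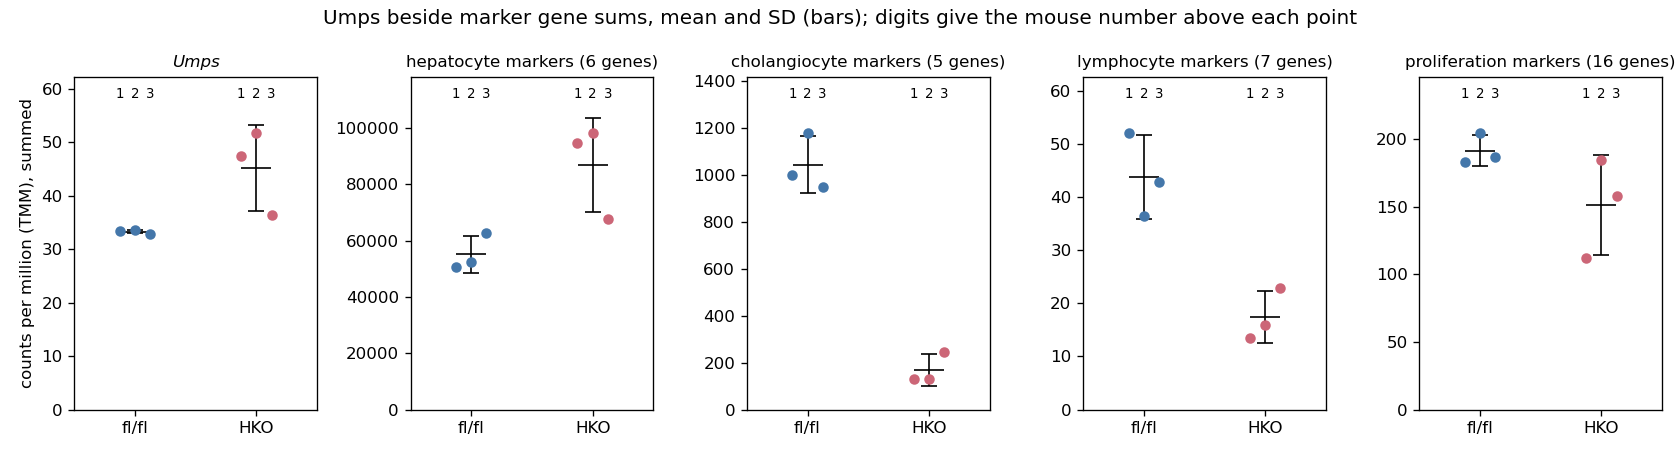
Umps and the summed levels of hepatocyte, cholangiocyte, lymphocyte and proliferation markers (vertical axes, CPM after TMM scaling, each from 0) in single livers, with the mean and SD of 3 mice and the mouse number above each point. In HKO mouse 3 both Umps (36.3) and the hepatocyte sum (67700) are lowest among HKO livers and nearest to the fl/fl livers, and with ERCC scaling the log2 ratio of the hepatocyte sums was -0.16.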

How the data were processed

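Liver RNA-seq of 3 SHMT2 fl/fl and 3 SHMT2 HKO mice was re-analysed. The deposited values are raw counts per gene, without normalization. The authors trimmed read pairs (Trimmomatic 0.36), aligned the trimmed pairs (STAR 2.5.2b) to GRCm38 joined with the ERCC sequences, and assigned uniquely mapped reads to genes (featureCounts, Subread 1.5.2), as their processing notes and methods state, and the strand setting is not given in the sources used here. Each column was assigned to its sample by its label.

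The 92 ERCC RNAs entered neither library sizes nor tests. Symbols, positions and exon lengths are from GENCODE M21 (GRCm38), in which 259 of 49671 identifiers had no entry. Genes were filtered with filterByExpr, scaled by TMM and tested with the robust quasi-likelihood test of edgeR 4.0.16 in R 4.3.3, two-sided. Benjamini-Hochberg adjustment ran over 16089 genes. On simulated counts in which 200 genes were changed, the code called 167 of them and also 16 unchanged genes. The SE is the log2 fold change divided by the root of F. Intervals use the t distribution with the degrees of freedom of the fit. The p-values measure the spread between these mice, and every pair of mice of one genotype differed by more than sampling noise. The detection floor of 3 counts came to 0.0733 to 0.152 CPM.

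The 15 alternatives were DESeq2 1.42.0, limma-voom (3.58.1), no TMM, upper-quartile and ERCC scaling, no filter beyond 1 count, at least 10 counts in each mouse, the robust option switched off, a block for the replicate number, and the omission of each mouse in turn. The genes and lists were chosen with earlier results of these data known. Named were the 10 genes, Shmt2 and, per list, up to 4 called genes with the smallest p, and of marker lists the counts and sums. Impdh2, Adss, Adssl1, Gmps, Guk1, Cmpk1, Ctps, Myc, Rrm1, Rrm2, Uox, Xdh, Mthfd2l, Mthfd1l and single markers were added after their values were seen. The methods name an older Ensembl annotation for the counts. The identifier that GENCODE M21 gives Pnp is not among those counted, so Pnp is not analysed here. Allc had 0 counts, and Aldh1l2 had too few counts to test. Of the genes first listed, 1 is not reported here.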

Additional observations from a re-analysis of the deposited data

How the results depend on the processing

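Shmt2 was called lower under all 15 alternatives, with log2 fold changes from -2.82 to -1.92 (-2.16 to -1.92 with a mouse left out). The number of genes called, 4663 with TMM (2012 higher and 2651 lower), was 2866 with ERCC scaling (107 higher, 2759 lower) and 2426 to 5597 with a mouse left out, lowest without fl/fl mouse 3. It was 5462 without TMM (539 higher, 4923 lower), 4500 with upper-quartile scaling (1461 higher, 3039 lower) and 5414 with DESeq2. Of the 10 synthesis genes, 0 were called with upper-quartile or ERCC scaling, without a filter, with at least 10 counts in every sample, without robust estimation, with the replicate block and with limma-voom, and 0 to 1 with a mouse left out. Without TMM 1 was called, Adsl and not Umps. At an unadjusted p under 0.05, 1 of the 10 passed with TMM. The called genes of the other nucleotide lists and the MYC network, 24 with TMM, came to 7 with ERCC scaling (0 higher, 7 lower), 19 without TMM (3 higher, 16 lower), 17 with the block and 7 to 27 with a mouse left out, lowest without fl/fl mouse 1 or 3. Impdh1 and Ampd3 were called under all 15 alternatives and Dctd under all 14 in which it was tested. The setting with at least 10 counts in every sample left Dctd out, since its HKO counts were low. Gda, Dpyd and Shmt1 were called under 14 of 15, all but ERCC scaling, and Tk1 and Mxi1 under 4. Without HKO mouse 3, log2 fold changes were larger in size for Tk1 (0.84), Urah (1.03), Aldh1l1 (1.33) and Mthfd1l (-1.95), among others. They were smaller for Mxi1 (0.30) and Mxd3 (-1.11), among others. The causes were not tested.

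With the replicate number as a block, 3584 genes were called and Umps had an adjusted p of 0.0757. The numbers do not pair the mice in the labels, and the deviations of same-numbered mice correlated at -0.03, 0.05 and -0.10.

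Signs reversed for the following log2 fold changes. Without TMM and with ERCC scaling, Ppat was -0.39 and -0.65, Gart -0.29 and -0.57, Paics -0.15 and -0.45, Atic -0.34 and -0.60, Dhodh -0.40 and -0.73, Prps1 -0.0012 and -0.29, and Mxi1 -0.01 and -0.26. With upper-quartile scaling, Ppat was -0.06, Atic -0.01 and Dhodh -0.06, and with at least 10 counts in every sample Ppat and Dhodh were -0.01. With ERCC scaling alone, Umps was -0.35, Mthfd1 -0.03, Adk -0.11, Upb1 -0.04, Dpys -0.02, Urad -0.04, Hprt -0.26, Urah -0.05 and Tk1 -0.20. Each of these ERCC values was smaller than its SE of 0.42 to 0.53. With a mouse left out, Ppat ranged from -0.06 to 0.07, Pfas from -0.13 to 0.10, Tyms from -0.11 to 0.08 and Dhodh from -0.06 to 0.10. The log2 ratio of summed CPM reversed for the synthesis genes (-0.25 without TMM, -0.55 with ERCC scaling), the endothelial markers (-0.17 and -0.42) and, with ERCC scaling, the hepatocyte markers (-0.16). No synthesis gene had under 150 counts in a library, and there were 3 mice per genotype. What limits the precision was not tested.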
